A study of Danio rerio with 18 samples.

Results

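The subject is the vascular endothelial growth factor (VEGF) system of the zebrafish embryo, represented by 9 genes chosen by name. The choice of these genes and of the lists below was made with earlier results of these data known. The 9 genes are the receptor genes kdrl, kdr, flt1 and flt4, the co-receptor (neuropilin) genes nrp1a and nrp1b, and the ligand genes vegfaa, vegfab and vegfc. All 9 were measured, each by exactly 1 named row, among 19247 named genes on 18 arrays. Embryos were of the AB strain and carried the transgenes Runx1+23:GFP;kdrl:DsRed2, that is, green protein under a Runx1 enhancer and red protein under the kdrl promoter. Pooled embryos were kept from 2 to 3 days post fertilization (dpf) in 75 µM Lycorine with 1% DMSO, or in 1% DMSO alone, and were dissociated and sorted at 3 dpf. Lycorine is a plant alkaloid that blocks protein synthesis. The 6 groups, of 3 arrays each, were Lycorine kdrl+, DMSO kdrl+, Lycorine Runx+, DMSO Runx+, Lycorine negative and DMSO negative cells. The submitters describe kdrl+ cells as endothelial and Runx+ cells as hematopoietic stem and progenitor cells (HSPC), and negative cells as the non-fluorescent remainder. They call the arrays biological replicates, without saying whether arrays of 1 number came from 1 pool. The p-values below treat all arrays as independent. They leave out any such pairing and rely on the replicate label for independence within a group.

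VEGF ligands are secreted proteins that bind receptor tyrosine kinases on endothelial cells and drive vessel sprouting, arterial identity and lymphatic growth. In zebrafish, Kdrl and Kdr carry most of the Vegfa signal, Flt1 acts largely as a decoy that holds Vegfa back, and Flt4 receives Vegfc in venous and lymphatic sprouts. Neuropilins are co-receptors that bind VEGFs and also class 3 semaphorins, the guidance cues that act through plexins. Vegfa is typically made by tissue around the vessels, so its ligands and receptors usually lie in different cells.

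Values are log2 intensities, and 1 log2 unit is a 2-fold ratio. Array medians lay between 4.87 and 5.12, and 3 arrays per group limit the precision. Differences are log2 ± SE from 1 limma fit of all 18 arrays, with n = 3 arrays per group, and a gene was called at an adjusted p under 0.05 (Benjamini-Hochberg over all genes). Levels of different genes cannot be set against each other on arrays. All 10 endothelial markers (such as cdh5 and pecam1a) were called higher in kdrl+ than in negative and in Runx+ cells under both treatments. The kdrl+ label thus held as an enrichment of endothelial cells, but purity was not settled. Of 8 myeloid markers, 6 with Lycorine and 5 with DMSO were also called higher in kdrl+ cells, against each other sort. Their medians with Lycorine and DMSO were 2.01 and 2.03 against negative cells, and 2.42 and 1.76 against Runx+ cells. The label of the Runx+ sort could not be settled by its markers. Limma called 0 of 7 HSPC markers between Runx+ and negative cells under either treatment, where hardly any gene was called (2 with Lycorine and 1 with DMSO). At an unadjusted p under 0.05, 1 marker was higher in Runx+ cells with Lycorine and 2 with DMSO, all with arrays that did not overlap. Over all genes, 3.46% (Lycorine) and 12.5% (DMSO) reached that level in either direction, and 13.4% and 10.9% had arrays without overlap. The integrin gene itga2b, found on thrombocytes and early HSPC, differed by 1.09 ± 0.39 with Lycorine (adjusted p = 1) and by 2.18 ± 0.39 with DMSO (adjusted p = 0.0774). The repressor gene gfi1aa differed by 0.71 ± 0.20 with DMSO (adjusted p = 0.182). Of the 7 HSPC markers, 4 had a positive difference with Lycorine and 5 with DMSO, and the rest did not. The medians were 0.04 and 0.24. Against negative cells, kdrl+ cells had 3 of the 7 HSPC markers higher with Lycorine and 5 with DMSO, and against Runx+ cells 3 and 4. DMSO arrays were more variable than Lycorine arrays, with a root mean square SD per gene of 0.44 to 0.54, against 0.26 to 0.33 in Lycorine groups. The 3 DMSO arrays numbered 2 also stood apart, with liver, pancreas and gut markers at a mean of 9.17 to 10.04. DMSO Runx+ replicate 3 had a mean of 8.48 for these markers, and the other 14 arrays had at most 7.43. Comparisons of 1 sort with both others, and of both treatments with the sorts, share arrays and are not independent of each other.

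All 4 receptor genes were far higher in kdrl+ cells than in either other sort, with and without Lycorine. The gene kdrl drives the reporter used for sorting, so its difference is a check of the sort and not a result. Its values were 10.63, 10.95 and 10.94 in Lycorine kdrl+ cells and 9.71, 10.26 and 11.04 in DMSO kdrl+ cells. In the other 4 groups the 12 arrays lay between 5.74 and 7.58. The reporter's gene thus separated every kdrl+ array from every other array.

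The second Vegfa receptor gene, kdr, gave 9.90, 10.12 and 9.98 in Lycorine kdrl+ cells and 9.11, 9.38 and 10.10 in DMSO kdrl+ cells. It gave 6.08, 5.24 and 5.49 in Lycorine Runx+ cells and 5.31, 6.17 and 5.31 in DMSO Runx+ cells. In negative cells it gave 4.30, 4.93 and 5.24 with Lycorine and 5.58, 5.10 and 5.35 with DMSO. The lowest kdrl+ array therefore stood well above the highest array of the other sorts. Against negative cells kdr was higher in kdrl+ cells by 5.18 ± 0.31 with Lycorine (adjusted p = 1.11e-08) and by 4.19 ± 0.31 with DMSO (adjusted p = 1.87e-07). Against Runx+ cells it was higher by 4.40 ± 0.31 with Lycorine (adjusted p = 8.87e-08) and by 3.93 ± 0.31 with DMSO (adjusted p = 6.95e-07).

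The decoy receptor gene flt1 had values of 8.96, 8.99 and 9.26 in Lycorine kdrl+ cells and of 8.11, 8.03 and 9.18 in DMSO kdrl+ cells. Runx+ arrays held 5.35, 4.90 and 4.96 with Lycorine and 5.92, 5.92 and 4.72 with DMSO. Negative arrays held 4.78, 4.84 and 5.05 with Lycorine and 4.81, 4.55 and 4.47 with DMSO. No kdrl+ array of flt1 overlapped another sort, and its DMSO Runx+ arrays were the most spread of these groups. It was higher in kdrl+ than in negative cells by 4.18 ± 0.32 with Lycorine and 3.83 ± 0.32 with DMSO (adjusted p = 8.71e-08 and 5.48e-07). Relative to Runx+ cells the difference was 4.0 ± 0.32 with Lycorine and 2.92 ± 0.32 with DMSO (adjusted p = 1.74e-07 and 1.45e-05).

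The Vegfc receptor gene flt4 measured 9.74, 9.13 and 8.97 in Lycorine kdrl+ cells and 8.94, 8.45 and 9.71 in DMSO kdrl+ cells. It measured 5.43, 5.18 and 5.21 in Lycorine Runx+ cells and 5.48, 5.78 and 5.55 in DMSO Runx+ cells. Negative cells had 5.93, 5.35 and 5.58 with Lycorine and 5.97, 5.12 and 5.91 with DMSO. Here too the kdrl+ arrays formed a separate upper group, and the other 12 arrays stayed within 5.12 to 5.97. The gene was higher in kdrl+ cells by 3.66 ± 0.30 (Lycorine) and 3.37 ± 0.30 (DMSO) against negative cells, with adjusted p = 2.4e-07 and 1.35e-06. Against Runx+ cells it was higher by 4.01 ± 0.30 (Lycorine) and 3.43 ± 0.30 (DMSO), with adjusted p = 1.34e-07 and 1.65e-06.

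**Figure D1:**
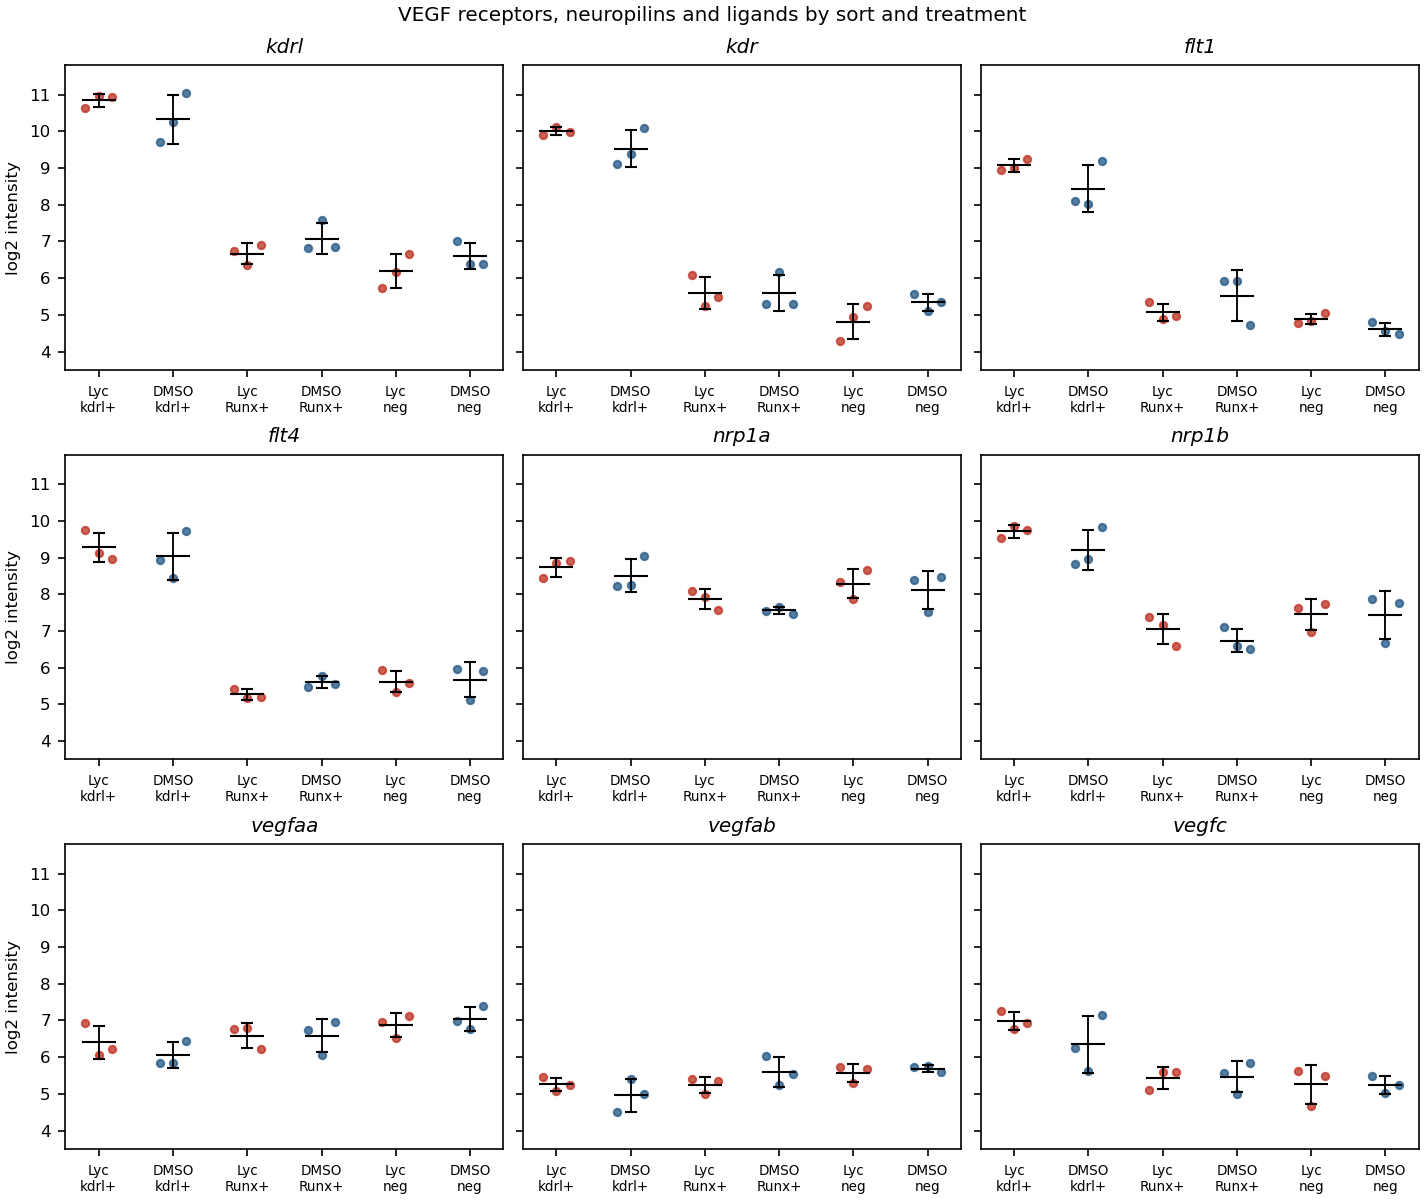
Log2 intensity (vertical axis) of each of the 9 genes on all 18 arrays, with a panel per gene and a column per sort and treatment (Lyc, Lycorine; neg, negative). Points are arrays, and bars are the mean ± SD of 3 arrays; kdrl, kdr, flt1, flt4 and nrp1b are high in both kdrl+ groups without overlap, while vegfaa and vegfab are not.

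The count of the 9 genes called between kdrl+ and negative cells was 6 higher and 0 lower with Lycorine, and 6 higher and 1 lower with DMSO. Over all genes, 12.9% were called with Lycorine and 10.5% with DMSO in this comparison (higher, 6.56% and 4.49%). Between kdrl+ and Runx+ cells, 6 were higher and 0 lower under each treatment, with 12.8% (Lycorine) and 8.43% (DMSO) of all genes called, of which 7.12% and 4.10% higher. The median difference of the 9 genes from negative cells was 2.27 with Lycorine and 1.77 with DMSO, beside -0.03 and -0.05 over all genes. These counts include kdrl, the gene behind the sort. Arrays did not overlap between kdrl+ and negative cells for 6 of the 9 genes with Lycorine and 8 of 9 with DMSO, where 38.9% and 20.6% of all genes had no overlap. Against Runx+ cells this held for 7 of 9 with Lycorine and 6 of 9 with DMSO, beside 40.3% and 16.3% of all genes. Endothelial markers moved with the receptors, by a median of 4.53 (Lycorine) and 3.65 (DMSO) against negative cells. Their mean level per array was 10.08 to 10.31 in Lycorine kdrl+ cells and 9.41 to 10.35 in DMSO kdrl+ cells, against 5.66 to 6.74 in the other 4 groups. More endothelial cells in a sort and more RNA per endothelial cell cannot be told apart in such bulk samples.

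Markers of other cell types also differed between the sorts. Relative to negative cells, 5 of 6 neural markers had lower values in kdrl+ cells that passed the test under each treatment (medians -1.74 with Lycorine and -2.33 with DMSO). Of 8 myeloid markers, 6 with Lycorine and 5 with DMSO were higher (medians 2.01 and 2.03). Mesenchyme markers were lower for 5 of 6 with Lycorine and 2 of 6 with DMSO (medians -1.60 and -1.29), and the HSPC markers were higher as given above. With Lycorine, 2 of 7 muscle, 2 of 6 epidermis and 2 of 6 erythroid markers were also lower, and 0 with DMSO. Against Runx+ cells, 4 (Lycorine) and 6 (DMSO) of 6 neural markers were lower. So were 5 and 2 of 7 muscle, 4 and 2 of 6 epidermis, and 2 and 0 of 6 mesenchyme markers, while 1 and 0 of 6 erythroid markers were higher. The part of these markers in the VEGF differences was not tested.

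Of the 2 neuropilin genes, nrp1b was called higher in kdrl+ than in negative cells and nrp1a was not. The co-receptor gene nrp1b had 9.52, 9.87 and 9.75 in Lycorine kdrl+ cells and 8.82, 8.97 and 9.83 in DMSO kdrl+ cells. Its Runx+ arrays read 7.38, 7.17 and 6.60 with Lycorine and 7.11, 6.60 and 6.51 with DMSO. Its negative arrays read 7.63, 6.97 and 7.74 with Lycorine and 7.86, 6.68 and 7.77 with DMSO. Every kdrl+ array lay above every other array. Against negative cells nrp1b was higher by 2.27 ± 0.34 with Lycorine (adjusted p = 0.000231) and 1.77 ± 0.34 with DMSO (adjusted p = 0.00259). Against Runx+ cells it was higher by 2.66 ± 0.34 and 2.47 ± 0.34 (adjusted p = 4.2e-05 with Lycorine and 0.000181 with DMSO).

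Its duplicate nrp1a held 8.44, 8.86 and 8.91 in Lycorine kdrl+ cells and 8.22, 8.26 and 9.04 in DMSO kdrl+ cells. In negative cells it held 8.34, 7.87 and 8.66 with Lycorine and 8.39, 7.53 and 8.46 with DMSO. The kdrl+ and negative arrays overlapped in both treatments. The differences were 0.45 ± 0.29 with Lycorine (95% interval -0.15 to 1.05, adjusted p = 0.409) and 0.38 ± 0.29 with DMSO (-0.22 to 0.98, adjusted p = 0.476). Runx+ arrays of nrp1a were lower, with 8.09, 7.92 and 7.56 with Lycorine and 7.54, 7.65 and 7.47 with DMSO, and did not overlap with the kdrl+ arrays of the same treatment. The difference of kdrl+ from Runx+ cells was 0.88 ± 0.29 with Lycorine (adjusted p = 0.0509) and 0.95 ± 0.29 with DMSO (adjusted p = 0.047). Leaving out DMSO kdrl+ replicate 3 ended the DMSO call (0.69 ± 0.29, adjusted p = 0.229), as did leaving out each DMSO Runx+ array (adjusted p = 0.0778 to 0.0962). Under both treatments the interval of nrp1b against negative cells (1.56 to 2.98 with Lycorine and 1.06 to 2.48 with DMSO) lay above that of nrp1a, and the difference between the pair was not tested.

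Within an array, the unequal change of the pair showed as a shift of the nrp1b minus nrp1a value. It was 0.98 ± 0.13 in Lycorine kdrl+ and 0.70 ± 0.09 in DMSO kdrl+ cells (SD, n = 3 arrays). In Runx+ cells it was -0.80 ± 0.14 with Lycorine and -0.82 ± 0.34 with DMSO, and in negative cells -0.84 ± 0.12 with Lycorine and -0.69 ± 0.16 with DMSO. The 6 kdrl+ arrays ranged from 0.60 to 1.08, and the 12 others from -1.06 to -0.43. Where these values stand relative to 0 depends on the probes as well as the RNA, so the shift between sorts alone is informative. The receptor pair kdr and kdrl shifted less, with kdr minus kdrl at -0.84 ± 0.11 in Lycorine kdrl+ and -0.80 ± 0.18 in DMSO kdrl+ cells, against -1.49 to -1.07 as group means elsewhere. Arrays of this pair overlapped between sorts, since Lycorine Runx+ replicate 1 was at -0.67 and the kdrl+ arrays ranged from -0.96 to -0.60. For flt4 minus flt1 the group means ran from 0.08 to 1.05 with SDs of 0.11 to 0.66, and kdrl+ groups lay among the others. The ligand pair vegfaa and vegfab showed no such shift, as its group means of 0.99 to 1.35 had SDs of 0.12 to 0.56. These within-array values were read as a description, without a test.

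**Figure D2:**
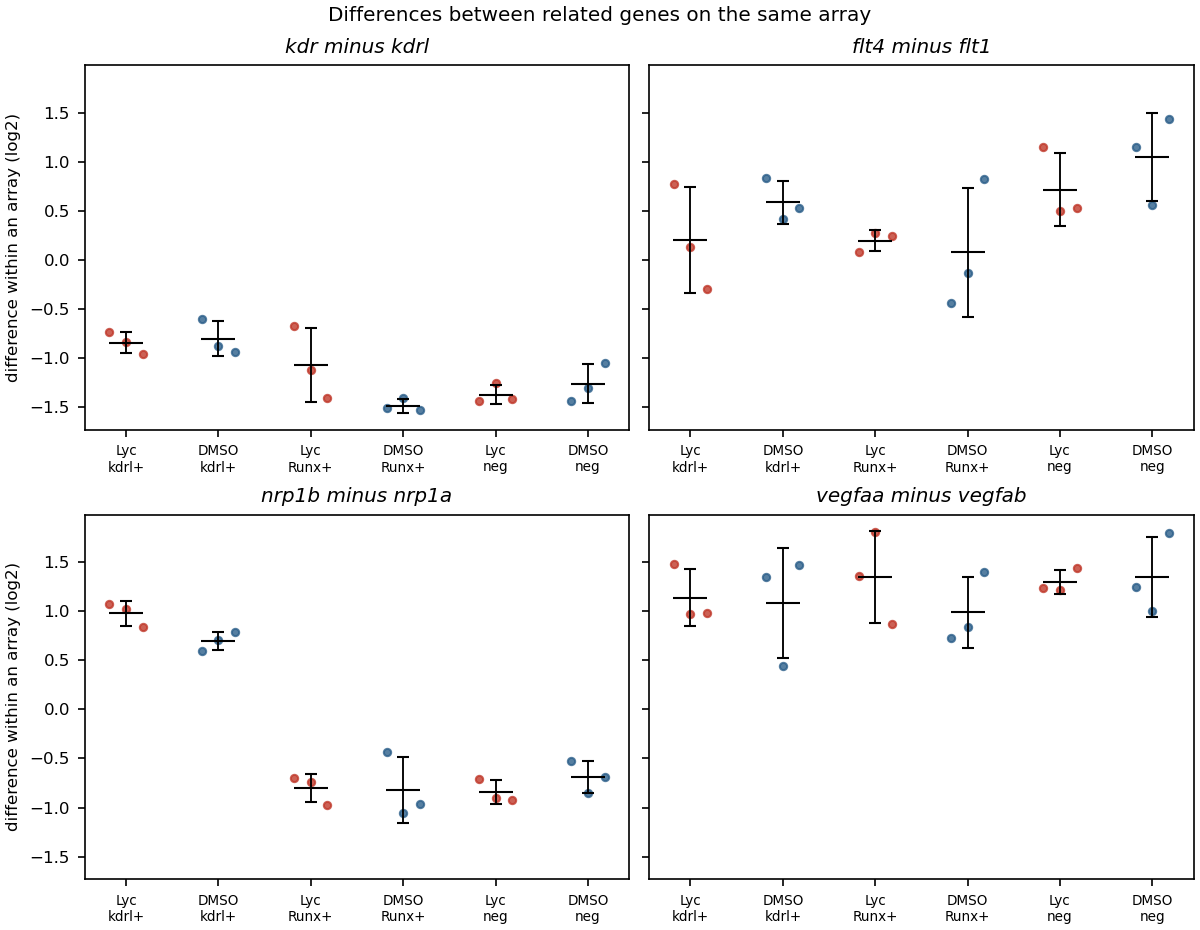
Difference in log2 intensity between related genes on the same array (vertical axis) for kdr minus kdrl, flt4 minus flt1, nrp1b minus nrp1a and vegfaa minus vegfab, by sort and treatment (Lyc, Lycorine; neg, negative). Points are arrays, and bars are the mean ± SD of 3 arrays; nrp1b minus nrp1a is 0.60 to 1.08 on the kdrl+ arrays and -1.06 to -0.43 on the others.

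The ligand genes divided. The lymphatic and venous growth factor gene vegfc was higher in kdrl+ cells, whereas both vegfa genes had their lowest mean in DMSO kdrl+ cells. For vegfc the values were 7.27, 6.78 and 6.93 in Lycorine kdrl+ cells and 6.26, 5.63 and 7.16 in DMSO kdrl+ cells. Runx+ cells had 5.10, 5.60 and 5.60 with Lycorine and 5.57, 5.01 and 5.83 with DMSO. Negative cells had 5.63, 4.66 and 5.50 with Lycorine and 5.49, 5.02 and 5.25 with DMSO. With Lycorine the kdrl+ arrays lay above both other sorts, while with DMSO they lay above the negative arrays and overlapped with the Runx+ arrays. With Lycorine vegfc was higher in kdrl+ cells by 1.73 ± 0.34 against negative and by 1.56 ± 0.34 against Runx+ cells (adjusted p = 0.00281 and 0.00642). With DMSO it was higher by 1.1 ± 0.34 against negative cells (adjusted p = 0.049), and its difference of 0.88 ± 0.34 from Runx+ cells was not called (adjusted p = 0.129). The DMSO call against negative cells was lost on leaving out any 1 of the 6 arrays except DMSO kdrl+ replicate 2 (adjusted p = 0.0719 to 0.234), and without DMSO kdrl+ replicate 3 the difference was 0.69 ± 0.32. Without DMSO kdrl+ replicate 2 the difference from Runx+ cells was 1.24 ± 0.34 and was called (adjusted p = 0.0304).

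The gene vegfaa encodes the main Vegfa ligand of embryonic vessel growth in zebrafish. Its values were 6.93, 6.06 and 6.22 in Lycorine kdrl+ cells and 5.85, 5.85 and 6.45 in DMSO kdrl+ cells. Negative cells had 6.96, 6.52 and 7.13 with Lycorine and 6.98, 6.76 and 7.39 with DMSO. Runx+ cells had 6.77, 6.80 and 6.21 with Lycorine and 6.75, 6.07 and 6.95 with DMSO. Groups overlapped in all of these comparisons except DMSO kdrl+ against DMSO negative cells, where every kdrl+ array was lower. That difference was -0.99 ± 0.30 (adjusted p = 0.0406), the single lower call among the 9 genes, where 6.02% of all genes were called lower. It was lost on leaving out DMSO kdrl+ replicate 1 or 2 or DMSO negative replicate 1 or 3 (adjusted p = 0.084 to 0.173), and when all DMSO arrays numbered 2 were left out (-1.03 ± 0.33, adjusted p = 0.0633). With Lycorine the difference from negative cells was -0.47 ± 0.30 (adjusted p = 0.405).

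The duplicate vegfab was the least variable of the ligands between groups. Its arrays read 5.45, 5.08 and 5.25 in Lycorine kdrl+ cells and 4.5, 5.41 and 4.99 in DMSO kdrl+ cells. Negative cells read 5.73, 5.29 and 5.68 with Lycorine and 5.72, 5.76 and 5.59 with DMSO, and the 6 Runx+ arrays lay between 4.99 and 6.03. The kdrl+ arrays lay below the negative arrays with DMSO and overlapped with them with Lycorine. Neither difference from negative cells was called (-0.31 ± 0.25 with Lycorine, adjusted p = 0.553, and -0.72 ± 0.25 with DMSO, adjusted p = 0.0725). Leaving out DMSO kdrl+ replicate 2, the highest array of its group, brought the DMSO difference to -0.94 ± 0.25 (adjusted p = 0.0254) and that from Runx+ cells to -0.86 ± 0.25 (adjusted p = 0.042, against -0.64 ± 0.25 and adjusted p = 0.128 with all arrays). With all DMSO arrays numbered 2 left out they were -0.91 ± 0.26 and -1.04 ± 0.26 (adjusted p = 0.0378 and 0.0281).

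**Figure D3:**
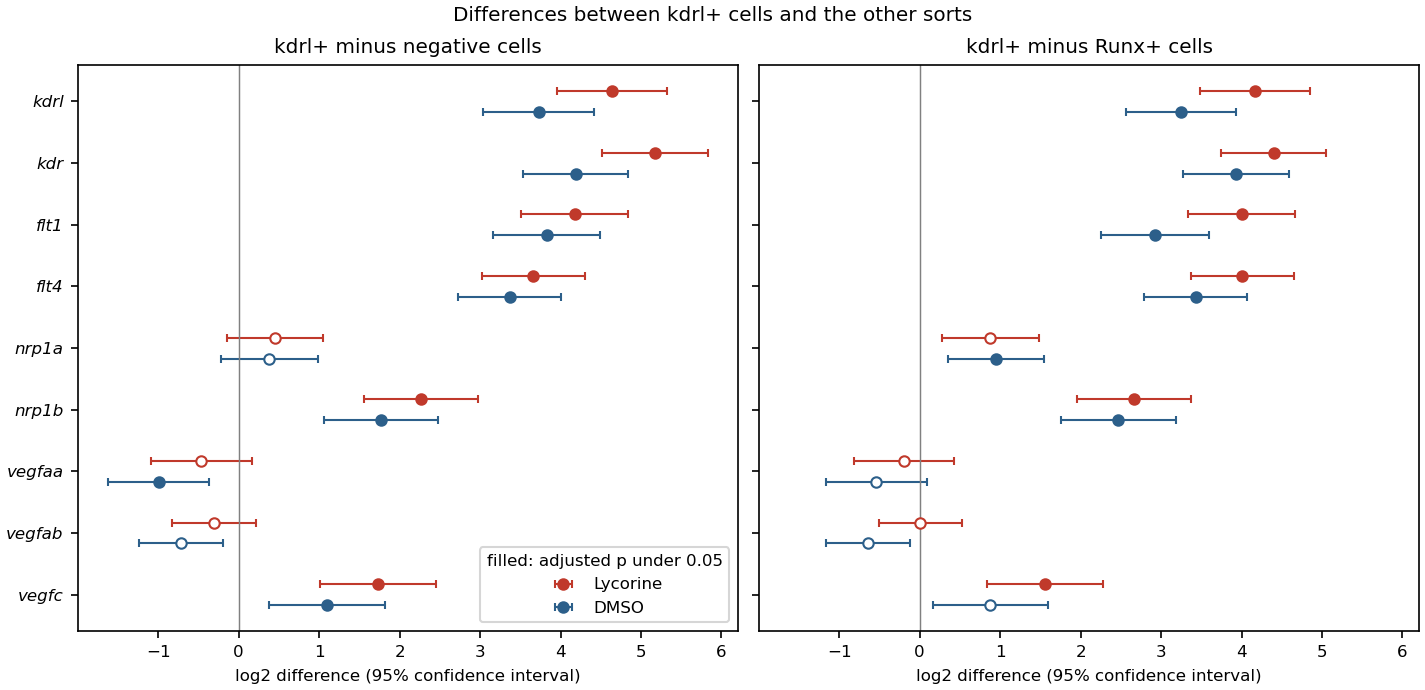
Log2 difference of kdrl+ from negative cells (left) and from Runx+ cells (right) for the 9 genes, with 95% confidence intervals, for Lycorine (red) and DMSO (blue). Filled points passed an adjusted p of 0.05 over all genes; the 4 receptor genes and nrp1b are filled in all comparisons, and vegfab in none.

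Runx+ and negative cells could not be separated by these genes. The 9 genes gave 0 calls between Runx+ and negative cells under either treatment with limma, where 0.0104% (Lycorine) and 0.0052% (DMSO) of all genes were called. The DMSO background rests on single arrays. It was 1 gene with all arrays, but leaving out Runx+ replicate 1 gave 568, leaving out negative replicate 2 gave 470, and array weights gave 343, while the count among the 9 stayed 0. At an unadjusted p under 0.05 there was 1 of 9 under each treatment. With Lycorine that gene was kdr, at 0.78 ± 0.31 (adjusted p = 1), and with DMSO it was flt1, at 0.90 ± 0.32 (adjusted p = 0.255). For comparison, 3.46% (Lycorine) and 12.5% (DMSO) of all genes reached that unadjusted level. Both neuropilin genes had a lower mean in Runx+ than in negative cells under each treatment, by 0.40 to 0.70, with adjusted p between 0.406 and 1. Ordered by mean, the neuropilin genes ran from kdrl+ through negative to Runx+ cells. For kdrl, kdr and flt1 the Runx+ groups lay next to the kdrl+ groups, and neighbours below the kdrl+ groups overlapped in each of these orders. For nrp1a every neighbouring pair of groups overlapped, the kdrl+ groups included.

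No VEGF gene passed the test for an effect of Lycorine in any sort. In kdrl+ cells all 9 differences of Lycorine from DMSO were positive with all arrays in the fit, led by vegfc at 0.64 ± 0.34 (95% interval -0.08 to 1.36, adjusted p = 0.481). The decoy receptor gene flt1 differed by 0.63 ± 0.32 (-0.04 to 1.30, adjusted p = 0.461), nrp1b by 0.51 ± 0.34 (-0.20 to 1.22) and kdr by 0.47 ± 0.31 (-0.19 to 1.13). The smallest difference was that of nrp1a, 0.23 ± 0.29 (-0.37 to 0.83). For each of the 9 genes the Lycorine and DMSO arrays of kdrl+ cells overlapped. For 8 of the 9 genes, all but vegfab, DMSO kdrl+ replicate 3 was the highest array of its group and lay within or above the range of the Lycorine arrays. That array also had the lowest mean of neural markers, 5.71, against 6.55 and 7.31 on the others of its group. Its mean of endothelial markers was the highest of the group (10.35 against 9.41 and 9.41), as was that of myeloid markers (8.81 against 8.36 and 8.19). Without DMSO kdrl+ replicate 3 the differences were 1.05 for vegfc, 1.0 for flt1, 0.85 for kdrl, 0.82 for nrp1b and 0.76 for kdr, none of them called (adjusted p = 0.0913, 0.084, 0.15, 0.203 and 0.204). Without DMSO kdrl+ replicate 2, flt4 turned to -0.04 and vegfc was at 0.29. Without DMSO kdrl+ replicate 1, kdrl was at 0.19 and kdr at 0.26. Limma called 0 of 9 genes, and none reached an unadjusted p under 0.05, while 0.052% of all genes were called, 11.4% reached the unadjusted level and 15.9% had arrays without overlap. The 10 genes called over all genes became 424 without DMSO kdrl+ replicate 3. The intervals do not show that the genes were equal between treatments: for kdr they leave room for a difference of up to 1.13.

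The 10 endothelial markers behaved alike in kdrl+ cells, as 9 differences were positive, 0 were called, 4 had an unadjusted p under 0.05, and the median was 0.67. Set against the mean of these markers on the same arrays, the difference of Lycorine from DMSO was 0.00 for kdrl, -0.03 for kdr, 0.00 for nrp1b and 0.12 for flt1. It was 0.14 for vegfc, -0.16 for vegfaa, -0.21 for vegfab, -0.26 for flt4 and -0.28 for nrp1a. The same shift of the marker mean, which is not the median of 0.67, was subtracted for every gene. The order of the genes is therefore that of the raw differences. The 5 genes with the largest raw differences (vegfc, flt1, nrp1b, kdrl and kdr) were within 0.14 of the markers, as means of 3 arrays. Their raw differences were alike, so their closeness to each other here adds nothing to those differences. The SD of the relative values was 0.37 (Lycorine) and 0.35 (DMSO) for vegfc. It was 0.05 and 0.28 for kdrl, and 0.07 in both groups for nrp1b. For nrp1a, the gene with the largest relative difference, it was 0.13 and 0.08. The relative values of nrp1a did not overlap, with -1.64, -1.45 and -1.39 under Lycorine against -1.19, -1.15 and -1.31 under DMSO. Neither the closeness of the other means to the markers nor the difference of nrp1a was tested. Other marker lists differed as well between these groups, with a median of 1.05 for 6 neural and -1.16 for 7 muscle markers, 0 called in each. The median was -1.07 for 5 liver, pancreas and gut markers and -0.89 for 6 erythroid markers, also with 0 called. Medians of the remaining lists lay between -0.40 (mesenchyme) and -0.03 (kidney podocyte). The part of these marker shifts in the VEGF values was not tested.

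In Runx+ cells the Lycorine differences of the 9 genes ranged from -0.45 ± 0.32 (flt1) to 0.31 ± 0.34 (nrp1b), and in negative cells from -0.52 ± 0.31 (kdr) to 0.28 ± 0.32 (flt1). Limma called 0 of 9 in each of these sorts, 0 at the unadjusted level, and 0% of all genes (13.5% in Runx+ and 6.76% in negative cells at the unadjusted level). In Runx+ cells the 0 over all genes became 1107 without DMSO Runx+ replicate 1 and 952 with array weights, and the count among the 9 stayed 0. For flt4 the Runx+ arrays did not overlap, with 5.43, 5.18 and 5.21 under Lycorine against 5.48, 5.78 and 5.55 under DMSO. This difference was -0.33 ± 0.30 (adjusted p = 0.686), and 15.3% of all genes had arrays without overlap in that comparison.

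Whether Lycorine acted differently in kdrl+ than in other cells was tested as a difference of its effects. Against negative cells the effect in kdrl+ cells was larger by 0.99 ± 0.44 for kdr (95% interval 0.06 to 1.92, unadjusted p = 0.0382, adjusted p = 0.999) and by 0.91 ± 0.46 for kdrl (-0.05 to 1.88). Against Runx+ cells it was larger by 1.08 ± 0.45 for flt1 (0.14 to 2.02, unadjusted p = 0.0274, adjusted p = 0.983). These were the members with an unadjusted p under 0.05, 1 of 9 in each comparison and 0 of 9 between Runx+ and negative cells. Limma called 0 of 9 and 0% of all genes in each of the 3 comparisons, while 2.66%, 4.43% and 1.67% of all genes reached the unadjusted level. The larger kdrl+ differences of the receptor genes under Lycorine than under DMSO therefore did not pass the test.

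**Figure D4:**
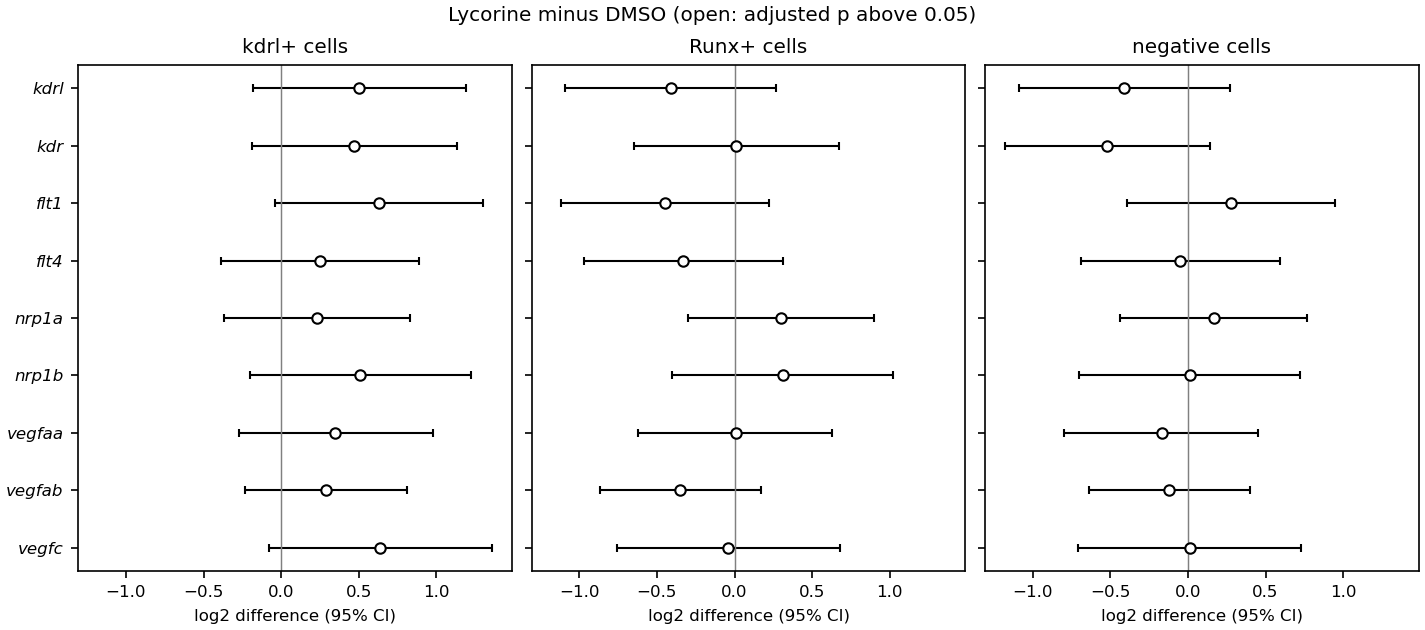
Log2 difference of Lycorine from DMSO (horizontal axis, with 95% confidence interval) for the 9 genes in kdrl+, Runx+ and negative cells. All points are open, as no adjusted p was under 0.05; in kdrl+ cells the 9 points lie between 0.23 and 0.64 and each interval includes 0.

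Over the 18 arrays the receptor genes varied almost as 1 pattern, with Pearson correlations of 0.96 to 0.99 among kdrl, kdr, flt1 and flt4. These receptor genes correlated at 0.90 to 0.95 with nrp1b, at 0.83 to 0.87 with vegfc and at 0.63 to 0.71 with nrp1a. With vegfaa the values were -0.59 to -0.47 and with vegfab -0.56 to -0.52, while vegfaa and vegfab correlated at 0.63 with each other. All of these points share the same 18 arrays and the split into sorts, so they describe the sorts more than any relation between genes.

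The genes whose values were most like those of each member were taken by Pearson correlation over the 18 arrays among all named genes. For kdr these were the receptor kinase gene tie1 (0.996), kdrl (0.994), RASIP1 (0.992), myct1a (0.990) and ecscr (0.990). For flt1 they were the adhesion molecule gene pecam1a, ushbp1 and CD93 (0.989 each), then myct1b and the sphingosine phosphate receptor gene s1pr3b (0.988 each). The nearest to flt4 were mrasa (0.989), the scavenger receptor gene stab2, known from veins and lymphatics (0.985), the Ets factor gene elk3 (0.985), egfl7 (0.983) and heg1 (0.982). The nearest to nrp1b were si:dkey-52l18.4 (0.976), shroom4 (0.974), mcamb (0.973), arhgef25a (0.971) and the ephrin receptor gene ephb4a, a vein marker (0.968). Within each of these lists the correlations were close and rest on the same split into sorts, so the order is not resolved. Whether flt4 or nrp1b resembled vein genes more than general endothelial genes was not tested. The likeness was weaker for nrp1a and the ligand genes. The best match of nrp1a was ebf1a (0.936), of vegfc dennd2c (0.925), of vegfaa angptl5 (0.834) and of vegfab vim and gng14 (0.771 each).

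The other genes of the VEGF pathway, in 7 lists, were compared between kdrl+ and negative cells, where 12.9% (Lycorine) and 10.5% (DMSO) of all genes were called and the median of all genes was -0.03 and -0.05. The placental growth factor gene pgfb, a ligand of Flt1, was higher in kdrl+ cells by 1.91 ± 0.30 with Lycorine and 1.64 ± 0.30 with DMSO (adjusted p = 0.000395 and 0.0019). It was also higher than in Runx+ cells, by 2.00 ± 0.30 and 1.73 ± 0.30. The other measured ligand gene of that list, vegfd, had -0.61 ± 0.30 and -0.64 ± 0.30 and was not called. Of 5 further ligand genes listed, these 2 were measured.

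Of 7 other neuropilin and plexin genes, kdrl+ cells had 1 higher and 3 lower than negative cells under each treatment, with a list median of -0.75 (Lycorine) and -0.81 (DMSO). The higher one was plxnd1, the semaphorin receptor of endothelial cells, at 1.91 ± 0.24 with Lycorine and 2.31 ± 0.24 with DMSO (adjusted p = 3.35e-05 and 5.92e-06). The lower ones were the plexin genes plxna4 (-1.68 ± 0.33 with Lycorine and -1.50 ± 0.33 with DMSO), plxna3 (-1.06 ± 0.29 and -1.01 ± 0.29) and plxna1a (-0.95 ± 0.24 and -0.88 ± 0.24), which act in axon guidance. The neuropilin genes nrp2a and nrp2b were not called, with -0.05 ± 0.31 and 0.28 ± 0.27 with Lycorine and 0.26 ± 0.31 and 0.36 ± 0.27 with DMSO. With Lycorine the count of 4 calls was 2 without Lycorine kdrl+ replicate 1 or Lycorine negative replicate 1 or 3, and with DMSO it was 2 without DMSO kdrl+ replicate 2 or 3 or DMSO negative replicate 1 or 3. The neural markers moved in the same direction as the plexin A genes, and their part was not tested.

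Among 11 class 3 semaphorin genes, which encode secreted neuropilin ligands, 2 were higher and 6 lower in kdrl+ than in negative cells under each treatment (list medians -1.07 with Lycorine and -0.80 with DMSO). Those higher were sema3ab, at 2.12 ± 0.39 with Lycorine and 1.48 ± 0.39 with DMSO, and sema3ga, at 1.71 ± 0.25 and 0.97 ± 0.25. The lower ones were led by sema3d, at -1.50 ± 0.31 with Lycorine and -1.71 ± 0.31 with DMSO. The others were sema3b, sema3bl, sema3c, sema3e and sema3fa, between -1.39 and -1.07 with Lycorine and between -1.48 and -0.80 with DMSO. The DMSO count of 8 was 6 without DMSO negative replicate 2, between 3 and 5 without DMSO kdrl+ replicate 1 or 2 or DMSO negative replicate 1 or 3, and 1 without DMSO kdrl+ replicate 3. The Lycorine count of 8 was 4 without Lycorine kdrl+ replicate 2 and at most 7 without any other array. Of the 3 measured Vegfc processing genes, ADAMTS14 and SVEP1 were lower with Lycorine (-0.73 ± 0.22 and -0.70 ± 0.22) but neither call survived leaving out any single array, and 0 were called with DMSO (2 at an unadjusted p under 0.05). With DMSO, 2 of these 3 genes were called without DMSO negative replicate 2, and 3 with all DMSO arrays numbered 2 left out.

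Of 23 measured genes that transmit the VEGF receptor signal, 6 were higher and 1 lower in kdrl+ than in negative cells with Lycorine, and 3 higher and 1 lower with DMSO. The list median was 0.02 with Lycorine and -0.07 with DMSO, close to that of all genes. The highest were RASIP1, a Ras and Rap1 effector needed for vessel lumens, and dab2, an endocytic adaptor for VEGF receptors. RASIP1 was higher by 5.11 ± 0.30 with Lycorine and 4.19 ± 0.30 with DMSO, and dab2 by 3.94 ± 0.23 and 3.60 ± 0.23. The phospholipase gene plcg1, which acts directly below the Vegfa receptors in zebrafish arteries, was higher by 1.48 ± 0.26 and 1.24 ± 0.26 (adjusted p = 0.00128 with Lycorine and 0.00571 with DMSO). With Lycorine the adaptor gene gab1 (1.20 ± 0.22), the exchange factor gene vav2 (1.05 ± 0.30) and the kinase subunit gene pik3ca (0.86 ± 0.26) were also higher. The Src family kinase gene fyna was lower, by -1.63 ± 0.36 with Lycorine and -1.26 ± 0.36 with DMSO.

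Genes known to respond to VEGF in endothelium were higher in kdrl+ than in negative cells for 14 of 19 measured genes with Lycorine and 9 of 19 with DMSO, with 0 lower (list medians 1.31 and 1.02). Among them were esm1, a secreted proteoglycan of sprouting tips (4.17 ± 0.38 with Lycorine and 3.62 ± 0.38 with DMSO), and hlx1, a homeobox factor (3.21 ± 0.29 and 2.34 ± 0.29). The phosphatase gene dusp5 had 2.95 ± 0.31 and 2.29 ± 0.31, and the Notch ligand gene dll4 had 2.61 ± 0.34 and 1.87 ± 0.34. The apelin receptor gene aplnrb had 2.54 ± 0.30 with Lycorine and 2.91 ± 0.30 with DMSO, and the chemokine receptor gene cxcr4a had 1.85 ± 0.27 and 1.94 ± 0.27. Several of these mark endothelium in general, so a VEGF response and endothelial content cannot be told apart in this list. The Lycorine count was 9 without Lycorine kdrl+ replicate 2 or 3 and otherwise at most 11, and the DMSO count was 7 to 10 with single arrays left out.

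Of 10 measured hypoxia regulators, the upstream control of vegfa genes, 4 were higher with Lycorine and 2 with DMSO, with 0 lower (medians 0.74 and 0.33). The prolyl hydroxylase genes egln1a (1.42 ± 0.27 with Lycorine and 1.02 ± 0.27 with DMSO) and egln1b (1.09 ± 0.30 and 1.28 ± 0.30), which mark Hif proteins for degradation, passed under both treatments. With Lycorine the related egln2 (1.44 ± 0.27) and the Hif gene epas1b (2.12 ± 0.50) passed as well. The DMSO count was 1 without DMSO kdrl+ replicate 2 or 3 or DMSO negative replicate 3, and 0 in a fit of the compared groups alone.

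Against Runx+ cells, where 12.8% (Lycorine) and 8.43% (DMSO) of all genes were called, the semaphorins gave 2 higher and 1 lower of 11 with Lycorine and 1 higher and 1 lower with DMSO. The DMSO count was 0 without DMSO kdrl+ replicate 3 and in a fit of the compared groups alone. The VEGF-responsive genes gave 12 of 19 higher with Lycorine and 10 of 19 with DMSO, which was 6 without DMSO kdrl+ replicate 3. The transducers gave 6 higher and 1 lower of 23 with Lycorine, and 3 higher and 1 lower with DMSO. Of 10 hypoxia regulators, 4 were higher with Lycorine and 1 with DMSO, the latter 0 to 2 with single arrays left out. The other neuropilin and plexin genes gave 1 higher and 1 lower of 7 under each treatment, and the Vegfc processing genes 0 of 3. None of the 75 measured genes of the 7 lists was called by limma, in the unweighted fit of all arrays, between Runx+ and negative cells, between Lycorine and DMSO in any sort, or for a difference of Lycorine effects. Leaving out 1 array, or weighting the arrays, gave calls in some of these comparisons. Without DMSO kdrl+ replicate 3, 3 responsive genes and 1 transducer were called for Lycorine in kdrl+ cells. Without DMSO Runx+ replicate 1, 3 hypoxia regulators and 1 responsive gene were called for Lycorine in Runx+ cells, and 2 hypoxia regulators and 1 transducer between Runx+ and negative cells with DMSO. Without DMSO negative replicate 2 the last comparison gave 1 semaphorin and 1 Vegfc processing gene. Array weights gave 1 hypoxia regulator there, and 1 hypoxia regulator, 1 responsive gene and 1 of the plexin and neuropilin list for Lycorine in Runx+ cells. At an unadjusted p under 0.05 there were 3 of 75 (4%) with Lycorine and 9 (12%) with DMSO between Runx+ and negative cells, beside 3.46% and 12.5% of all genes. Between Lycorine and DMSO there were 10 in kdrl+, 10 in Runx+ and 4 in negative cells of the 75, beside the 11.4%, 13.5% and 6.76% of all genes. For the differences of effects there were 0 to 5 of 75, beside 1.67% to 4.43% of all genes. The 10 in kdrl+ cells were 5 of the 19 responsive genes, 3 of the 23 transducers, 1 of the 11 semaphorins, 1 of the 10 hypoxia regulators and 0 of the other 3 lists. In Runx+ cells they were 4 of the 7 other neuropilin and plexin genes, 3 transducers, 2 hypoxia regulators and 1 responsive gene.

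**Figure D5:**
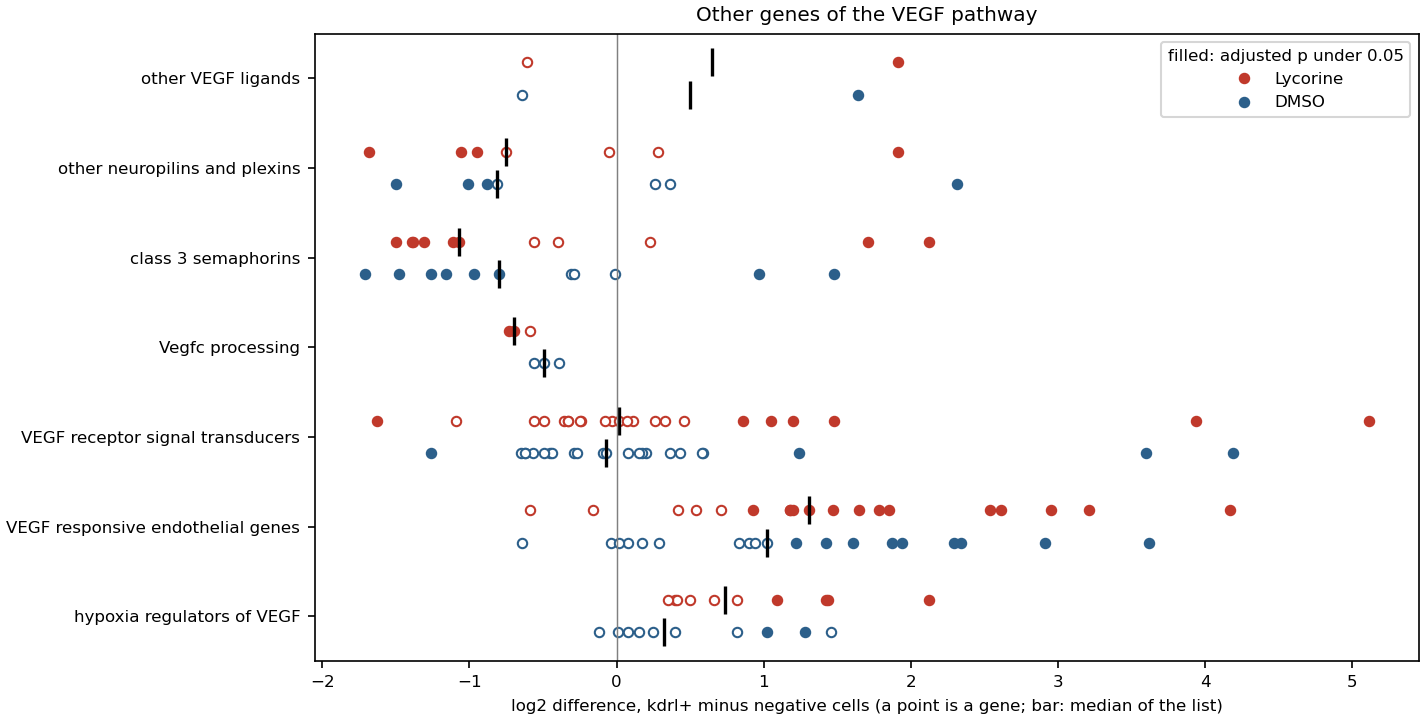
Log2 difference of kdrl+ from negative cells (horizontal axis) for every measured gene of 7 VEGF pathway lists, with Lycorine (red) above DMSO (blue). Each point is a gene, filled where its adjusted p over all genes was under 0.05, and the black bar is the list median; the responsive genes lie mostly right of 0 (medians 1.31 and 1.02) and the semaphorins mostly left (-1.07 and -0.80).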

How the data were processed

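RNA of the sorted cells was amplified and biotin-labelled, per the labels' protocols. The deposited table holds log2 values of 65528 probe rows on 18 arrays. Per the submitters' processing notes, the authors' tools were RMA, oligo and limma; their versions are not given in the sources used here. The deposited log2 values are therefore taken as background-corrected and quantile-normalized by RMA. RMA compresses large and dim differences. No column of values was left unused (0). Of the rows, 20806 had 1 symbol. Symbols were updated through Entrez identifiers in a RefSeq table of the assembly GRCz12tu (20323 rows through the identifier, 72 through a symbol and 43 through a synonym), while 368 rows retained the array's name. The row with the highest mean stood for each of 19247 genes. No sequence or coordinate was used.

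The 6 group means were fitted to all 18 arrays with limma 3.58.1 in R 4.3.3 (lmFit, contrasts, eBayes, 2-sided), with Benjamini-Hochberg adjustment over all genes per contrast and a threshold of 0.05, without a filter or offset. There were 12 contrasts, made of 6 between sorts, 3 between treatments and 3 differences of treatment effects. The procedure was tested on simulated data with independent noise and the same SD of a gene in all groups. That test does not cover the unequal spread of the treatments or pairing of arrays. Tables used Python 3.11.15 with pandas 2.3.3, and figures matplotlib 3.10.9. The members and lists were chosen with earlier results of these data known. All 9 members were named. Pathway genes were named where called, at most 8 per list by adjusted p, or from counts of 5 or fewer, and likeness by the 5 highest Pearson correlations. The genes vegfd, nrp2a, nrp2b, itga2b and gfi1aa were added to the text after their values were seen.

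Samples of 1 number deviated together, by correlation of deviations from group means over genes, in DMSO kdrl+ with DMSO negative cells (0.26, 0.39 and 0.12), DMSO kdrl+ with DMSO Runx+ cells (0.42, 0.33 and 0.36), Lycorine kdrl+ with Lycorine negative cells (0.24, 0.22 and 0.42) and Lycorine negative with DMSO negative cells (0.28, 0.31 and 0.15). So did Lycorine negative with DMSO kdrl+ cells, which differ in both sort and treatment (0.11, 0.31 and 0.15). Other pairs of groups were mixed or near 0, such as Lycorine Runx+ with Lycorine negative cells (0.33, -0.15 and -0.36). Over all pairs of groups, 21 of 45 such correlations were over 0.1, and they ranged from -0.36 to 0.42. Samples of different numbers gave -0.4 to 0.41. The main fit did not pair samples by replicate number, so its SEs and p-values are unpaired. The pairing entered only as the replicate block, an alternative. Alternatives were the replicate block, array weights, fits of the compared groups only, median centring, cyclic loess, a filter on dim genes, other rows per gene, eBayes with trend and robust options, and leaving out each array. Leaving out the DMSO arrays numbered 2 together was chosen after seeing the data.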

Additional observations from a re-analysis of the deposited data

How the results depend on the processing

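The calls of kdrl, kdr, flt1, flt4 and nrp1b in kdrl+ cells, against negative and against Runx+ cells under both treatments, held under every alternative run, with adjusted p of at most 0.0382. Among the alternatives, other rows per gene and the filter on dim genes could not change the values of the 9 genes. Each had 1 row and passed the filter. The kdr difference from negative cells ranged from 4.91 to 5.38 with Lycorine and from 3.90 to 4.39 with DMSO, and that of nrp1b from 2.03 to 2.41 and from 1.39 to 1.98. The replicate block gave 6 (Lycorine) and 7 (DMSO) calls among the 9 genes against negative cells, and 7 and 6 against Runx+ cells. The added call was nrp1a with Lycorine (0.88 ± 0.27, adjusted p = 0.0427), where the arrays share only a number, and the block changed no other call of the 9 genes. With single arrays left out, the DMSO counts were 5 to 7 against negative and 5 to 8 against Runx+ cells. None of the 9 VEGF genes was called in any alternative for Lycorine, for a difference of its effects, or between Runx+ and negative cells.

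The calls of vegfc, vegfaa and nrp1a with DMSO were lost with array weights (adjusted p = 0.153, 0.0806 and 0.162) and in fits of the compared groups alone (0.158, 0.105 and 0.212). Such fits have fewer arrays and also use only the spread of the compared groups, and the part of each was not tested. Median centring ended those of vegfaa (0.0845) and nrp1a (0.0632), and the trend and robust options that of nrp1a (0.0522). Array weights added vegfaa with Lycorine against negative cells (-0.62 ± 0.20, adjusted p = 0.0246). For nrp1a with Lycorine against Runx+ cells, array weights, fits of the compared groups, cyclic loess, the filter on dim genes and the mean of a gene's rows each gave a call (adjusted p = 0.00286 to 0.0498). The last 2 of these settings left the values of nrp1a itself unchanged, as it had 1 row and passed the filter. They are no separate support for its call. The cause of the other changed calls was not tested.

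Of the pathway lists, the semaphorin count against negative cells with DMSO was 8, but 5 with array weights, 5 with median centring and 1 in a fit of the compared groups. The plexin and neuropilin count of 4 was 2 with median centring and 1 in that fit. The responsive genes against Runx+ cells with DMSO numbered 10, but 6 with array weights and 4 in that fit. Over all genes, a fit of the compared groups called 730 of 19247 between kdrl+ and negative cells with DMSO, against 2023 otherwise, and 5029 against 2492 with Lycorine. Unequal spread between the treatments means that the shared variance is too large for Lycorine groups and too small for DMSO groups. With 3 arrays per group, the intervals leave room for Lycorine differences of over 1 log2 unit in several of the 9 genes. Dim signal limits flt1, kdr and vegfab, whose means were above the median of all values in 4, 5 and 5 of 6 groups. Outside kdrl+ cells the group means of vegfc (5.25 to 5.47) and flt4 (5.27 to 5.67) were also close to that median, 4.97.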
